A study of Rattus norvegicus with 12 samples.

Results

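The 6 libraries described here are the slow muscle set of a series of 12 RNA-seq libraries from skeletal muscle of male rats aged 540 days. They were chosen by the number in their title, which is under 20. Libraries 3, 8 and 9 were labelled control, and libraries 12, 13 and 15 were labelled maternal protein restriction. In the restriction group the dams had received a diet with 6% protein through pregnancy and nursing. The labels state neither the protein content of the control diet nor what the offspring ate after weaning. The other 6 libraries, numbered 23 to 35, have the same age and the same 2 diets. The libraries under 20 are called set 1 and the others set 2. The study took soleus and extensor digitorum longus muscles, and the labels do not say which muscle a library came from.

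The name slow muscle was checked against contractile transcripts. Levels are given as CPM, the usual depth-scaled count, after TMM scaling (a correction for differences in library composition). Myh7, the myosin heavy chain of slow fibres, measured 31172 to 38338 CPM in the 6 libraries of set 1 and 702 to 2589 CPM in set 2. Myh4, the heavy chain of fast type IIB fibres, measured 4.97 to 396 CPM in set 1 and 11042 to 47519 CPM in set 2. The treated animal was the mother, and no label names a mother, litter or offspring. Libraries of a group may come from littermates, and the p-values and SE measure only the spread between these libraries. In whole muscle, fewer cells of a type and less RNA per cell cannot be told apart.

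Slow muscle holds posture with oxidative fibres that are rich in mitochondria. Each mitochondrial genome encodes its own transfer RNAs, and nuclear genes supply the enzymes that process and charge them. Muscle fibres also run a circadian clock, in which the activator pair of Arntl with Clock or Npas2 drives its own inhibitors. Maternal protein restriction is a widely used model of how early nutrition affects adult tissue.

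Total counts ran from 26506707 to 38313704 in the controls of set 1 and from 22829692 to 26037169 in its restriction libraries, so each restriction library was shallower than each control. Mitochondrial rRNA took 0.246% to 0.302% of counts in controls and 0.328% to 0.384% in restriction libraries. The 10 most abundant rows took 22.7% to 23.0% and 23.8% to 24.2%. Each of these measures separated the groups, at an exact two-sided permutation p of 0.1, the smallest that 3 libraries against 3 can give. Their part in the gene results was not tested. The first principal component of set 1 held 28.1% of the variance and did not separate the diets. The second held 22% and did, with control 3 at -48.2 and restriction 12 at 48.8 as its extremes and the other 4 libraries between -8.13 and 8.54. In gene models that span less DNA, differences leaned slightly upward, with a median log2 fold change of 0.04 in the shortest 3295 of the genes with a known span and -0.04 in the longest 3295.

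The main question was which transcripts differ in slow muscle between offspring of restricted and control dams. Of 14225 genes tested with edgeR's quasi-likelihood test, 1 passed a Benjamini-Hochberg adjusted p of 0.05 (0.00703%), with 0 higher (0%) and 1 lower. Before adjustment, 1073 genes (7.54%) had a p under 0.05, 476 higher after restriction (3.35%) and 597 lower (4.2%). The 3 restriction values lay outside the range of the 3 control values for 2499 genes (17.6%), 1134 with all restriction values higher (7.97%) and 1365 with all lower (9.6%). Of all genes tested, 49.5% had a log2 fold change above 0, and the median was -0.003. The comparison was repeated with DESeq2, which called 38 genes (0.267%), 12 higher and 26 lower, and with limma-voom, which called 3 (0.0211%). The rules behind the genes and lists below are given with the processing, and each count of list members is to be read against these shares. In the lists of values that follow, controls come in the order 3, 8, 9 and restriction libraries in the order 12, 13, 15.

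The gene that passed was Trnn, the mitochondrial tRNA for asparagine. Its row held 256, 286 and 620 counts in the controls and 20, 20 and 27 in the restriction libraries. Scaled for depth these were 8.60, 10.6 and 16.4 CPM against 0.793, 0.768 and 1.10 CPM. The groups lay far apart, with the lowest control several times above the highest restriction library. Trnn fell by 3.74 on the log2 scale (SE 0.37, 13.3-fold, edgeR adjusted p = 0.00097). Leaving out any 1 of the 12 libraries gave values between -3.92 and -3.43, all called. In set 2 Trnn measured 1.88, 1.37 and 2.40 CPM in controls and 1.48, 1.17 and 1.79 CPM in restriction libraries, so all of set 2 and the restriction libraries of set 1 lay at 0.768 to 2.40 CPM and the controls of set 1 above that.

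Trnc, the tRNA for cysteine and a neighbour of Trnn in mammalian mitochondrial DNA, held 63, 57 and 69 counts in controls and 7, 2 and 7 in restriction libraries. These are 2.12, 2.10 and 1.82 CPM against 0.278, 0.0768 and 0.285 CPM, again without overlap, for a difference of -3.22 ± 0.85 on the log2 scale (edgeR adjusted p = 0.51), and DESeq2 called it. Trny, the tRNA for tyrosine from the same cluster, measured 1.51, 1.18 and 1.69 CPM against 1.07, 0.921 and 0.936 CPM, also without overlap and with a smaller difference of -0.59 ± 0.56. Trna, the fourth tRNA of that cluster, held 0 to 4 counts in every library and was not tested. Trnw, for tryptophan and next to Trna, measured 549.7, 150.4 and 865.9 CPM against 168.5, 786.7 and 505.4 CPM. Its groups overlapped, at -0.10 ± 0.65 on the log2 scale. Strand is not marked in these libraries, so reads of these tRNAs and of transcripts from the opposite strand share a row.

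The mitochondrial tRNAs as a group had no common direction. Of 22 tRNA rows, 19 were tested, with 10 log2 fold changes above 0 and 9 below and a median of 0.09. Groups did not overlap for 6 higher and 3 lower. The most abundant one, Trns1 for serine, measured 16120, 21050 and 21670 CPM in controls and 42600, 31580 and 32630 CPM in restriction libraries. All 3 restriction libraries lay above all controls, for 0.86 ± 0.32 on the log2 scale (edgeR adjusted p = 0.56). Trne, for glutamate, lay at 1684 to 2183 CPM and 2901 to 3219 CPM. Trnq, for glutamine, held 11, 6 and 11 counts in controls and 14, 60 and 61 in restriction libraries. Together the tRNA rows took 2.22%, 2.70% and 2.88% of counts in controls and 4.77%, 4.12% and 4.26% in restriction libraries, with Trns1 making up most of it. Short structured RNAs are recovered unevenly by kits for long RNA, and a role of recovery in these rows was not tested.

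Nuclear genes that act on mitochondrial tRNAs differed little. Of 26 tested, 15 values were above 0 and the median was 0.07, with 5 higher and 1 lower without overlap. Nars2, which charges the asparagine tRNA, measured 12.5, 9.67 and 10.7 CPM in controls and 10.7, 10.1 and 11.2 CPM in restriction libraries (log2 fold change -0.04 ± 0.19). Its groups overlapped. Cars2, the corresponding enzyme for cysteine, measured 14.7, 13.9 and 13.2 CPM in controls and 19.7 ± 0.63 CPM (SD, n = 3) in restriction libraries, with every restriction library higher (0.50 ± 0.22, edgeR adjusted p = 0.63). Trit1, which modifies a base next to the anticodon, was at 0.58 ± 0.21, and Gatb, a subunit of the complex that makes glutaminyl-tRNA, at 0.42 ± 0.18.

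Apart from Trnn, the 7 genes with the smallest p and lower values were Tcap, Lrrfip1, Nr4a2, Arntl, Acadsb, Tob1 and Fam168a. None passed in edgeR over all genes, and DESeq2 called each of them. Tcap encodes telethonin, which caps titin at the Z-disc, the border of the contractile unit. It measured 187, 249 and 242 CPM in controls and 65.5, 42.9 and 40.8 CPM in restriction libraries. No restriction library came near a control, and the log2 fold change was -2.18 ± 0.32 (4.54-fold, edgeR adjusted p = 0.064). In set 2, Tcap lay at 34.9 to 101 CPM in controls and 38.9 to 45.0 CPM in restriction libraries, with control 28 the highest at 101 CPM.

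Lrrfip1, whose product binds nucleic acids and represses transcription, measured 232, 221 and 261 CPM in controls and 121, 127 and 123 CPM in restriction libraries. The values within each group were close together, and the difference was -0.94 ± 0.15 on the log2 scale (edgeR adjusted p = 0.10). Acadsb, an enzyme of isoleucine breakdown, measured 9.75, 5.76 and 11.9 CPM against 1.79, 2.38 and 2.20 CPM (-2.10 ± 0.40, edgeR adjusted p = 0.20). Tob1, an antiproliferative protein that promotes mRNA decay, measured 140, 134 and 140 CPM against 91.5, 75.7 and 82.9 CPM (-0.73 ± 0.15). Fam168a measured 42.7, 51.9 and 51.3 CPM against 26.2, 22.5 and 24.8 CPM (-0.99 ± 0.20). In each of these genes every restriction library lay below every control.

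**Figure D1:**
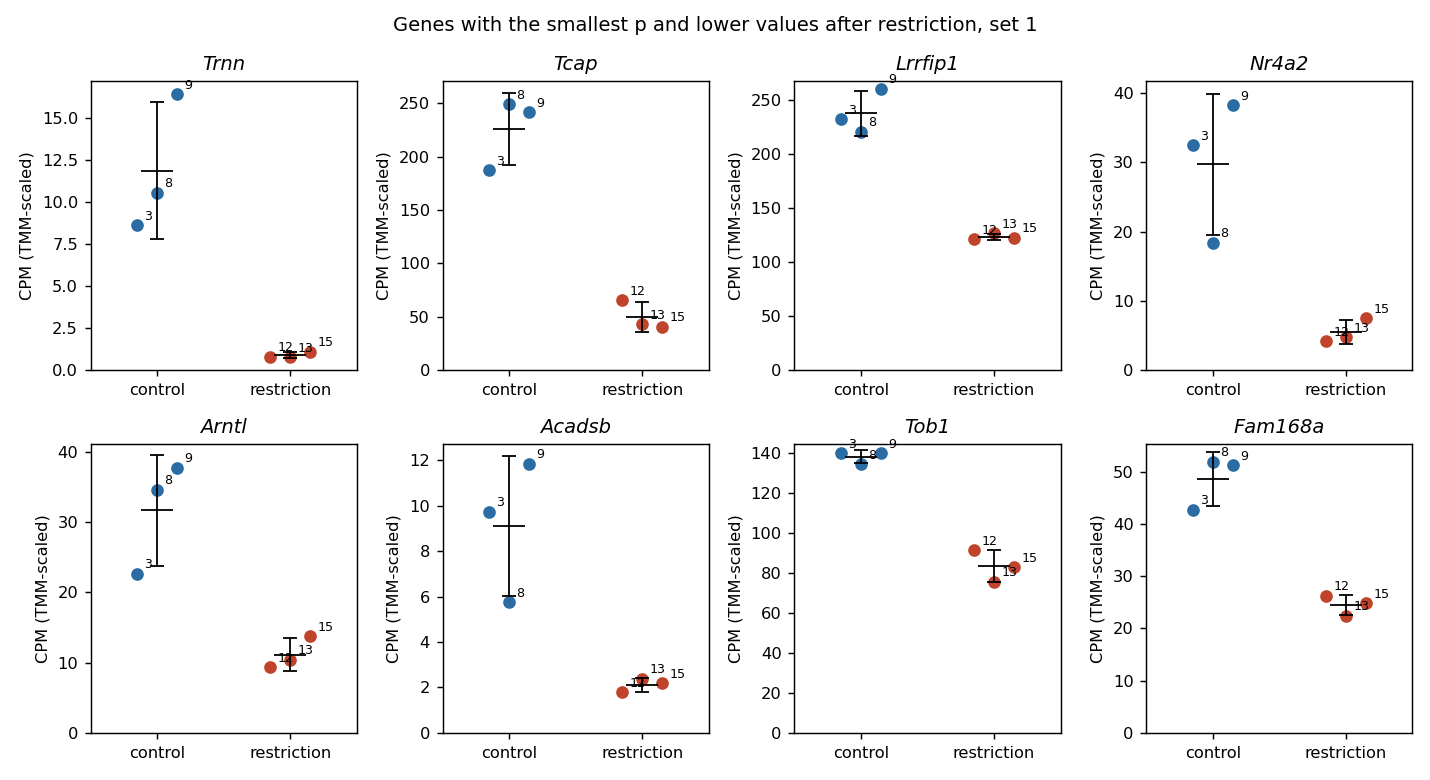
CPM of the 8 genes with the smallest p and lower values, in the 6 libraries of set 1; points are libraries with their title numbers, long bars the mean of 3 and error bars 1 SD, and each axis starts at 0. In all 8 panels the 3 restriction points lie below the 3 control points, and Trnn drops from 8.60 to 16.4 CPM to at most 1.10 CPM.

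The calls of these genes differed between fits. Without a filter on low counts edgeR called 6 of 18540 genes (0.0324%): Trnn, Tcap, Nr4a2, Arntl, Acadsb and Lrrfip1. Fitted to the 6 libraries of set 1 alone it called 5 of 13514 (0.037%): Tcap, Trnn, Lrrfip1, Nr4a2 and the unnamed locus LOC683961, which is higher. Without control 23, a library of set 2, it called 22 of 14637 genes tested (0.15%), and these included all 6 genes called without the filter. Leaving out that library changes both the estimated spread and the genes that pass the count filter. The 3 genes of limma-voom were Tcap, Trnn and Lrrfip1.

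Nr4a2, an orphan nuclear receptor induced within minutes by stimulation, measured 32.5, 18.4 and 38.3 CPM in controls and 4.21, 4.80 and 7.53 CPM in restriction libraries. The groups were well separated, with a log2 fold change of -2.43 ± 0.41 (5.40-fold, edgeR adjusted p = 0.11). It belongs to the immediate early genes, the first transcripts made after contraction, stress or growth factor signals. Of 25 such genes tested, 20 values were below 0, the median was -0.57, and 3 were lower and 1 higher without overlap. Its relative Nr4a1 measured 274, 187 and 331 CPM against 89.5, 101 and 207 CPM (-0.997 ± 0.36), with restriction 15 inside the control range. Btg2, a close relative of Tob1, measured 153, 125 and 122 CPM against 72.8, 105 and 112 CPM (-0.47 ± 0.23), with all restriction libraries lower.

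Restriction 12 was the lowest library for several immediate early genes. Fos, the partner of Jun in AP-1, measured 134, 84.4 and 80.0 CPM in controls and 9.12, 104 and 66.2 CPM in restriction libraries. Dusp1, a phosphatase that switches off MAP kinases, measured 212, 174 and 169 CPM against 49.3, 178 and 145 CPM. In both, restriction 12 stood apart and the other restriction libraries overlapped with or lay near the controls. Without restriction 12 the median of the list was -0.23, and without restriction 15 it was -0.86. Ier3, an early gene that limits cell death, went the other way, at 70.6, 71.7 and 26.2 CPM in controls and 124, 165 and 102 CPM in restriction libraries (1.22 ± 0.35, edgeR adjusted p = 0.53). Nr4a3 and Atf3 overlapped widely, with restriction 15 the highest of the 6 libraries for both, at 13.2 and 82.2 CPM.

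Arntl, also called Bmal1, is the core activator of the circadian clock. It measured 22.6, 34.6 and 37.7 CPM in controls and 9.32, 10.4 and 13.7 CPM in restriction libraries. All restriction libraries lay below all controls, for a log2 fold change of -1.51 ± 0.25 (2.84-fold, edgeR adjusted p = 0.11). Npas2, which can replace Clock as its partner, measured 11.2, 19.8 and 18.8 CPM against 8.93, 9.02 and 9.73 CPM (-0.85 ± 0.33). Cry1, an inhibitor of the activator pair, measured 17.6, 22.3 and 21.1 CPM against 12.5, 13.0 and 15.5 CPM (-0.58 ± 0.19). In these 3 genes every restriction library lay below every control. Over the 19 clock genes tested 11 values were above 0, the median was 0.07, and Hlf was the 1 gene with all restriction libraries higher (8.94, 5.54 and 6.03 CPM against 9.36, 9.79 and 11.9 CPM).

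For the clock genes, promoter sequence was set beside the levels in single libraries. From the RefSeq promoter table (GRCr8, 250 bases before the start), 16 of the 19 clock genes had an entry. The motifs searched on both strands were the E-box CACGTG, bound by Arntl with Clock, the core of the ROR element TAGGTCA, bound by Nr1d receptors, the D-box TTACGTAA, the cAMP response element TGACGTCA and the estrogen-related receptor element TCAAGGTCA, whose last 6 bases the ROR core shares. Of the 16 clock promoters 4 held the E-box (25%), in Tef, Ciart, Bhlhe40 and Bhlhe41, against 5.79% of 27457 promoters. Only Arntl held the ROR core among them, against 2.26% of all promoters, and none of the 16 held any of the other motifs. Shown here are Arntl, which was low in all 3 restriction libraries, and Ciart and Bhlhe41, 2 repressor genes that were highest in restriction 12. The ROR core or the E-boxes are in capitals. In the other restriction libraries Bhlhe41 measured 9.68 and 11.2 CPM, below every control. Ciart measured 3.23 CPM, below every control, and 11.4 CPM, above every control. A contrast of these 2 genes with Arntl therefore rested largely on restriction 12. The Arntl window is chr1:176766078-176766327 on the plus strand, that of Ciart chr2:186112247-186112496 and that of Bhlhe41 chr4:180569356-180569605, both on the minus strand.
Arntl: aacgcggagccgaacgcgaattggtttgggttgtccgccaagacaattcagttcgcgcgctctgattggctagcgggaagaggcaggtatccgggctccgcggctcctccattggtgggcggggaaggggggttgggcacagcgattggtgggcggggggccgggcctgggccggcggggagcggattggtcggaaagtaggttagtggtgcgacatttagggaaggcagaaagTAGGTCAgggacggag
Ciart: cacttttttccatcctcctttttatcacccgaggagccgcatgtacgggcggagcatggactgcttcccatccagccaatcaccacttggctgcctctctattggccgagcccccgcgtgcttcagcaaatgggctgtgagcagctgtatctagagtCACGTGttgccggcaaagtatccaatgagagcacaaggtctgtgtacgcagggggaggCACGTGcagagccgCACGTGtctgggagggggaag
Bhlhe41: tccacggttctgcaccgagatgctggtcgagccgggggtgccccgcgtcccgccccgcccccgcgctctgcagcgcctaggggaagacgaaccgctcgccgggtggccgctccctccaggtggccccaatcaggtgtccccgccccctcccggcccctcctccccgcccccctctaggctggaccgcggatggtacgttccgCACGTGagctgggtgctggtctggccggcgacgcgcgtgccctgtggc
The ROR core of Arntl begins 16 bases before the start, and the E-boxes of Ciart 93, 35 and 21 bases before it and that of Bhlhe41 48 bases before it. Such a match describes the letters of the window and shows no binding.

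Several clock output genes were highest in restriction 12. Ciart, a repressor of the activator pair, measured 5.88, 9.71 and 8.84 CPM in controls and 36.7, 3.23 and 11.4 CPM in restriction libraries. Bhlhe41, which competes for E-boxes, measured 13.98, 23.3 and 18.1 CPM against 37.5, 9.68 and 11.2 CPM. Dbp, an activator of D-box genes, measured 90.6, 120 and 51.3 CPM against 335, 113 and 84.0 CPM. Nr1d1, the receptor that represses Arntl, measured 184, 243 and 268 CPM against 397, 150 and 110 CPM. In all 4 restriction 12 lay above the other 5 libraries, and restriction 13 and 15 lay inside or below the control range or, for Ciart in restriction 15, just above it. Without restriction 12, the log2 fold change of Dbp went from 1.02 to 0.17 and that of Ciart from 1.07 to -0.16, and the list median went to -0.16. No label gives the hour at which the muscles were taken.

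**Figure D2:**
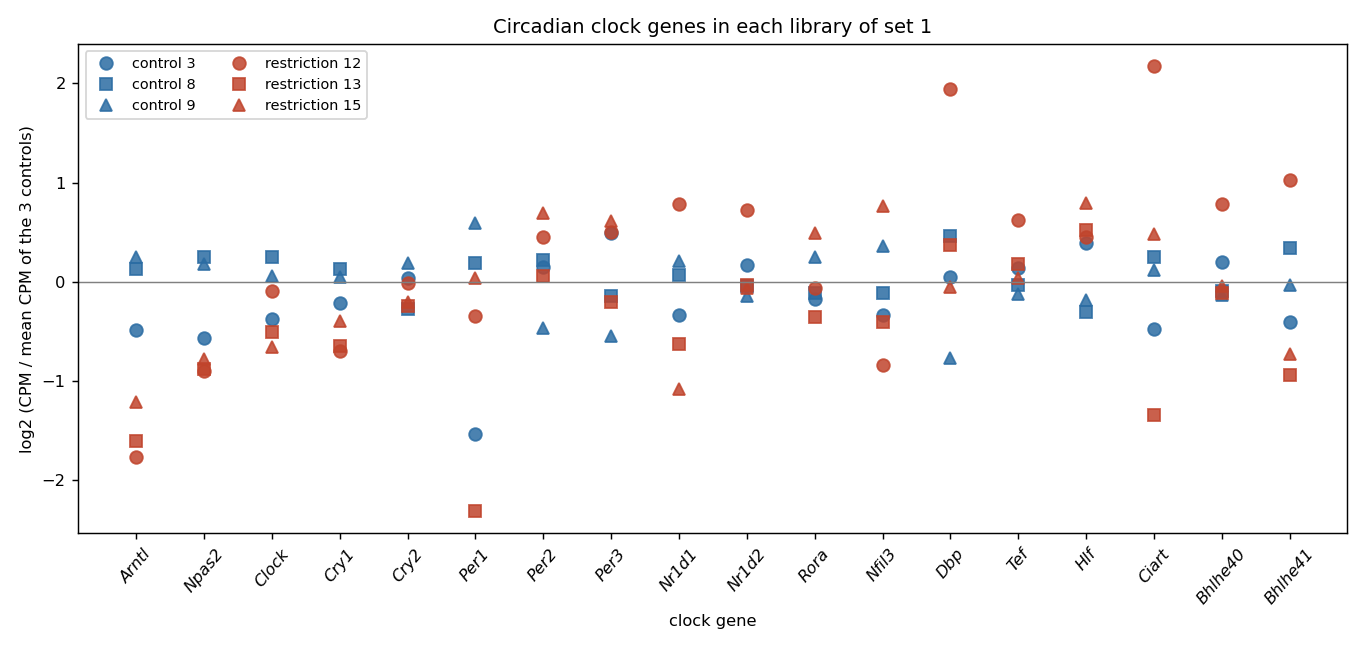
Log2 ratio of each library's CPM to the mean of the 3 controls for 18 clock genes in set 1; blue symbols are controls, red symbols restriction libraries, and the grey line is the control mean. Arntl, Npas2 and Cry1 have all red symbols below the blue ones, and the red circle of restriction 12 stands above the rest for Nr1d1, Nr1d2, Dbp, Ciart, Bhlhe40 and Bhlhe41.

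Among higher genes none passed in edgeR, and the 8 with the smallest p were Sh3rf2, Tmlhe, Nprl3, Idh1, Mmgt2, Espl1, Vps41 and Tmem159. DESeq2 called the first 5 of them. Sh3rf2, a RING-finger protein with SH3 domains, measured 23.3, 21.3 and 13.8 CPM in controls and 47.1, 35.7 and 41.3 CPM in restriction libraries (1.09 ± 0.21 on the log2 scale, edgeR adjusted p = 0.20). Tmlhe, the first enzyme of carnitine synthesis, measured 4.74, 5.24 and 4.50 CPM against 9.12, 10.1 and 8.91 CPM (0.96 ± 0.21). Idh1, the cytosolic isocitrate dehydrogenase that makes NADPH, measured 28.3, 32.5 and 32.9 CPM against 60.5, 50.7 and 39.6 CPM (0.69 ± 0.16). Every restriction library was above every control in these genes, and the groups of Tmlhe were the tightest.

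Genes of lysosomal and nutrient-sensing complexes were among those with higher values. Nprl3, a subunit of GATOR1, which restrains mTORC1 when amino acids are short, measured 17.3, 15.5 and 19.2 CPM in controls and 27.5, 28.5 and 26.3 CPM in restriction libraries (0.66 ± 0.15, edgeR adjusted p = 0.35). Its partner Nprl2 measured 21.3, 14.4 and 14.9 CPM against 24.5, 25.1 and 21.9 CPM (0.50 ± 0.17). Vps41, part of the complex that fuses vesicles with lysosomes, measured 14.3, 10.8 and 12.0 CPM against 19.7, 20.8 and 22.8 CPM (0.77 ± 0.19). All 3 genes had separate groups. The autophagy and lysosome list as a whole had 12 of 21 values above 0, a median of 0.02, and 5 higher and 3 lower members without overlap, with Becn1, Sqstm1 and Atg4b lower.

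Espl1, the protease separase that parts sister chromatids, measured 1.28, 0.812 and 0.714 CPM against 1.86, 2.38 and 2.52 CPM (1.27 ± 0.31). Cenpm, a centromere protein, lay at 0.134 to 0.344 CPM and 0.960 to 1.83 CPM (2.61 ± 0.56, edgeR adjusted p = 0.29). Both were scarce, and the 23 cell division genes tested had a median of 0.04 with 3 higher and 0 lower without overlap. The remaining higher one, Mcm4, was less scarce, at 6.15, 4.25 and 4.29 CPM against 6.78, 8.45 and 11.4 CPM (0.86 ± 0.31, edgeR adjusted p = 0.55). Tmem159, which takes part in lipid droplet formation, measured 10.4, 11.7 and 10.8 CPM against 15.7, 17.8 and 21.1 CPM (0.73 ± 0.18). Mmgt2 measured 9.04, 7.27 and 4.58 CPM against 14.8, 11.9 and 15.4 CPM (1.01 ± 0.24). Neither group overlapped with the other in these genes.

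Fast-fibre genes were split in set 1, and none passed the test in edgeR. Of 15 tested, 10 values were above 0 and 5 below, the median was 0.48, and 5 were higher and 0 lower without overlap. The 5 were Tnni2, Tnnt3 and Tnnc2, which form fast troponin, Tpm1, a tropomyosin, and Myh2, the heavy chain of type IIA fibres. Tnni2 measured 666, 789 and 324 CPM in controls and 1083, 1474 and 1063 CPM in restriction libraries (1.02 ± 0.28, edgeR adjusted p = 0.52). Myh2 measured 1238, 1812 and 806 CPM against 2191, 2732 and 1962 CPM (0.84 ± 0.28, edgeR adjusted p = 0.53). Control 9 was the lowest control for all 5 genes. Without control 9 Tnni2 was at 0.73, Tnnt3 at 0.70, Tpm1 at 0.76, Tnnc2 at 0.62 and Myh2 at 0.59, none of them called. The summed level of the 15 genes was 13970, 12700 and 9228 CPM in controls and 17660, 18680 and 15640 CPM in restriction libraries, without overlap.

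Transcripts of IIX and IIB fibres overlapped between the groups, and single libraries stood far above the rest. Myh4 measured 396, 19.5 and 4.97 CPM in controls and 15.0, 9.10 and 13.9 CPM in restriction libraries. Myh1, the IIX heavy chain, measured 169, 37.0 and 16.7 CPM against 53.2, 65.0 and 307 CPM. Actn3, the fast actinin, measured 161, 6.02 and 4.97 CPM against 8.25, 11.9 and 59.8 CPM. Control 3 was highest for Myh4, Actn3, Pvalb and Mybpc2, and restriction 15 was highest for Myh1 and second for the other 3 named besides Myh4. Without control 3 the log2 fold change of Actn3 went from -1.10 to 2.29, that of Pvalb from -1.87 to 1.22 and that of Mybpc2 from -0.56 to 2.77, none of them called, and the list median was 1.02. Without restriction 15 the median was 0.25. Without control 3 and restriction 15 together it was 0.88, Tnni2 was at 1.20, Myh2 at 0.91, Myh1 at 1.14, Actn3 at 0.88, Mybpc2 at 1.32 and Pvalb at -0.20, none of them called.

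**Figure D3:**
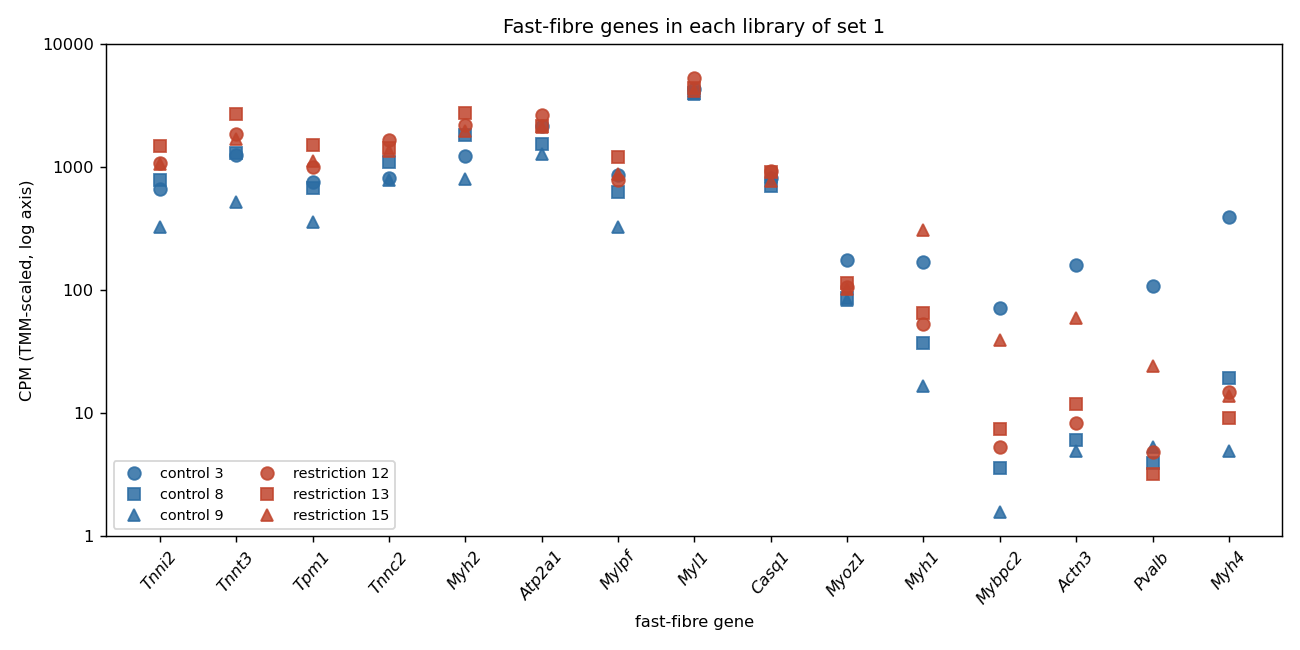
CPM on a log axis of 15 fast-fibre genes in each library of set 1; blue symbols are controls and red symbols restriction libraries. From Tnni2 to Myh2 the red symbols lie above the blue ones, and from Myh1 to Pvalb control 3 (blue circle) and restriction 15 (red triangle) lie above the other 4 libraries.

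Slow-fibre genes mostly had values slightly below 0. Of 13 tested, 11 values were below 0, the median was -0.11, and Myl2, a regulatory light chain, was the 1 gene without overlap, at 1447, 1652 and 1845 CPM in controls and 1258, 1032 and 891 CPM in restriction libraries (-0.64 ± 0.38, edgeR adjusted p = 0.71). Myh7 measured 32535, 38338 and 35667 CPM against 31641, 31172 and 34082 CPM (-0.14 ± 0.36), and its groups overlapped. Of the calcium handling genes, Pln, the brake on the slow calcium pump, measured 18.1, 8.49 and 9.79 CPM against 7.78, 5.14 and 6.76 CPM (-0.89 ± 0.32). Camk2b, a calcium-dependent kinase, measured 629, 566 and 583 CPM against 502, 469 and 458 CPM (-0.31 ± 0.13). These 2 were the members without overlap among 18 tested, whose median was -0.05.

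The series description reports 8 genes, named from this study's own muscles, so their direction here is no independent evidence. Fmod, which binds collagen fibrils, measured 51.5, 33.2 and 37.4 CPM in controls and 57.4, 63.3 and 114 CPM in restriction libraries, without overlap (0.94 ± 0.28, edgeR adjusted p = 0.53). Chad, a cartilage matrix protein, measured 10.2, 5.02 and 5.87 CPM against 9.12, 14.7 and 20.8 CPM (1.08 ± 0.40), with restriction 12 below control 3. Hspb7, a small heat-shock protein of heart and muscle, measured 5039, 9539 and 10269 CPM against 6138, 3730 and 2964 CPM (-0.95 ± 0.32), with control 3 below restriction 12. Ldha, a lactate dehydrogenase subunit, measured 327, 239 and 228 CPM against 368, 375 and 350 CPM, without overlap (0.46 ± 0.20, edgeR adjusted p = 0.60). Cs (-0.36 ± 0.23), Sdha (-0.12 ± 0.15), Igf1 (0.21 ± 0.31) and Myog (-0.44 ± 0.21) overlapped between the groups.

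Tendon and cartilage matrix genes shared the direction of Fmod. Of 19 tested, 17 values were above 0, the median was 0.39, and 2, Fmod and Prelp, were higher without overlap. Prelp, a proteoglycan that anchors collagen, measured 50.3, 52.6 and 45.7 CPM against 65.4, 61.5 and 89.6 CPM (0.54 ± 0.19). Comp, a pentameric protein of tendon and cartilage, measured 4.47, 2.99 and 1.88 CPM against 3.53, 7.45 and 13.1 CPM (1.37 ± 0.43). Restriction 15 was the highest library for Fmod, Prelp, Comp and Chad, and without it Fmod was at 0.57, Comp at 0.82 and Chad at 0.77 on the log2 scale and the list median was 0.18. Without control 3 the median was 0.82. The defining tendon cell markers Scx, Tnmd and Mkx overlapped, at 20.6 to 53.4 CPM, 0.886 to 4.61 CPM and 0 to 1.06 CPM over the 6 libraries. The summed level of the list was 244 to 425 CPM in controls and 330 to 548 CPM in restriction libraries.

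Interstitial collagens had a median of 0.12 over 24 genes, with Fbln5, an elastic fibre protein, the 1 member without overlap (7.73, 9.53 and 8.62 CPM against 12.2, 13.2 and 16.2 CPM, 0.68 ± 0.28). Without control 9 the median was -0.05 and without control 3 it was 0.40, so its sign and size rested on single libraries. Col1a1 lay at 78.2 to 229 CPM in controls and 81.3 to 204 CPM in restriction libraries, and Col3a1 at 96.2 to 274 CPM and 92.9 to 252 CPM. Both overlapped fully. Serpinh1, the collagen chaperone, measured 72.9, 71.8 and 39.8 CPM against 83.2, 110 and 99.2 CPM (0.67 ± 0.22), and Mmp14, a membrane protease that cuts collagen, 19.2, 21.5 and 17.0 CPM against 9.20, 13.4 and 12.9 CPM (-0.70 ± 0.27). Ctgf, a matricellular target of TGF-beta, measured 90.4, 94.3 and 85.6 CPM against 108, 149 and 166 CPM (0.65 ± 0.27). Of 27 genes of myostatin and TGF-beta signalling, 3 were higher and 3 lower without overlap, at a median of -0.07. Bmpr1a, a BMP receptor, was among the lower ones (-0.89 ± 0.41).

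Mitochondrial gene groups had opposite leanings of small size. Of 39 nuclear genes of the respiratory chain, 31 values were above 0, the median was 0.13, and 10 were higher and 1 lower without overlap. Cox6a2, a muscle subunit of cytochrome oxidase, measured 4921, 4820 and 5265 CPM in controls and 6825, 5824 and 5330 CPM in restriction libraries (0.26 ± 0.24). Ndufs8, a complex I subunit, measured 183, 206 and 208 CPM against 277, 261 and 233 CPM (0.37 ± 0.18). Atp5a1, the alpha subunit of ATP synthase, was the member that was lower, at 1461, 1487 and 1591 CPM against 1353, 1063 and 1077 CPM (-0.38 ± 0.17). Control 3 was the lowest of the controls for most of these genes, and without it the list median was 0.04.

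Regulators of mitochondrial number and shape lay on the other side. Of 20 tested, 16 values were below 0, the median was -0.15, and 5 were lower and 0 higher without overlap: Esrra, Mfn1, Mterf1, Ppargc1b and Esrrg. Esrra, a nuclear receptor that switches on oxidative genes with PGC-1 coactivators, measured 121, 179 and 205 CPM in controls and 118, 99.7 and 81.5 CPM in restriction libraries (-0.76 ± 0.20, edgeR adjusted p = 0.51). Control 3 and restriction 12 came within a few CPM of each other. Mfn1, which fuses outer mitochondrial membranes, measured 60.4, 70.9 and 77.5 CPM against 54.9, 39.2 and 46.6 CPM (-0.57 ± 0.22). Ppargc1b, a coactivator of Esrra, measured 6.89, 8.16 and 6.59 CPM against 4.09, 4.18 and 5.09 CPM (-0.69 ± 0.37). Ppargc1a, the better known coactivator, overlapped (12.9 to 24.6 CPM and 12.0 to 15.9 CPM), as did Tfam, which packs mitochondrial DNA (0.20 ± 0.15).

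Fuel genes had negative medians near those of the regulators. Of 29 genes of fatty acid use 22 values were below 0 with a median of -0.13, and of 28 citric acid cycle and pyruvate genes 20 were, with a median of -0.12. Etfa, which passes electrons from fatty acid oxidation to the respiratory chain, measured 366, 379 and 513 CPM against 352, 286 and 263 CPM (-0.48 ± 0.17). Ogdh, the entry subunit of the oxoglutarate dehydrogenase complex, measured 107, 163 and 200 CPM against 100, 68.3 and 99.2 CPM (-0.81 ± 0.27, edgeR adjusted p = 0.53). Acacb, whose product malonyl-CoA limits fatty acid entry into mitochondria, measured 341, 342 and 386 CPM against 291, 218 and 248 CPM (-0.50 ± 0.20). Each of the 3 was lower in all restriction libraries. Without overlap, 1 fatty acid gene was higher and 3 were lower, and 1 citric acid cycle and pyruvate gene was higher and 2 were lower. Glycolysis and glycogen genes had 17 of 25 values above 0, a median of 0.06, and 5 higher and 1 lower without overlap, among the higher Gapdh at 3304, 3185 and 3294 CPM against 3936, 4146 and 4065 CPM (0.31 ± 0.21).

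Pdk4, Angptl4 and Ucp3, genes that respond to fasting, were highest in control 9, with control 8 second. Pdk4, which shuts glucose carbon out of the citric acid cycle, measured 41.3, 165 and 381 CPM in controls and 88.3, 28.8 and 74.1 CPM in restriction libraries. Angptl4, an inhibitor of lipoprotein lipase, measured 9.78, 23.4 and 109.5 CPM against 12.8, 10.9 and 11.5 CPM. Ucp3, a mitochondrial carrier, measured 23.7, 41.7 and 187 CPM against 34.1, 20.4 and 16.9 CPM. Fkbp5, a glucocorticoid target of the same list, measured 17.7, 89.0 and 96.8 CPM against 76.8, 19.3 and 37.3 CPM, high in control 8, control 9 and restriction 12. Without control 9 the log2 fold changes of Pdk4, Angptl4 and Ucp3 went from -1.62, -2.02 and -1.82 to -0.69, -0.50 and -0.45. The muscle ubiquitin ligases Trim63 (0.42 ± 0.43) and Fbxo32 (0.06 ± 0.64) overlapped. Foxo4, a transcription factor of the Foxo family, was lower in all restriction libraries, at 95.0, 77.7 and 99.6 CPM against 62.2, 60.0 and 64.9 CPM (-0.54 ± 0.16, edgeR adjusted p = 0.53).

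Growth signalling showed no common direction. Of 21 IGF and growth factor genes 9 values were above 0, the median was -0.09, and 2 were higher and 4 lower without overlap. Grb10, an adaptor that dampens insulin signalling, measured 44.0, 39.1 and 34.3 CPM in controls and 72.5, 49.3 and 67.6 CPM in restriction libraries (0.69 ± 0.21). Eif4ebp1, a translation repressor held in check by mTORC1, measured 84.8, 119 and 93.3 CPM against 219, 133 and 162 CPM (0.79 ± 0.33). The lower ones were Insr (-0.64 ± 0.32), Irs1 (-0.69 ± 0.36), Mtor (-0.30 ± 0.16) and Rps6kb1 (-0.39 ± 0.15), which encode the insulin receptor, its first substrate, the mTOR kinase and the S6 kinase. Insr measured 11.4, 17.7 and 15.7 CPM against 10.8, 7.56 and 10.3 CPM, and Rps6kb1 21.0, 21.9 and 20.1 CPM against 13.8, 16.9 and 17.4 CPM. None of these 6 passed the test in edgeR over all genes.

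Of 34 proteasome genes 24 values were below 0 with a median of -0.07, and 5 were lower and 1 higher without overlap. Psmd13, of the regulatory particle, was lower (-0.34 ± 0.14), and Psme2, of the activator induced by interferon, was higher (0.39 ± 0.17). The amino acid response list had a median of 0.03 over 21 genes, and leaving out any 1 library of set 1 gave a negative median, between -0.13 and -0.07. Its largest value belonged to Chac1, which breaks down glutathione, at 2.59, 1.74 and 6.75 CPM against 25.9, 15.5 and 4.60 CPM (2.03 ± 0.68), with restriction 15 inside the control range. Ddit3 and Nupr1, targets of the same stress pathway, were lower in all restriction libraries (-0.29 ± 0.31 and -1.46 ± 0.61).

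Heat-shock and chaperone genes had a median of -0.10 over 28 genes, with 2 higher and 2 lower without overlap. Hspa1a, an inducible Hsp70, measured 18.5, 24.0 and 18.1 CPM against 9.24, 8.83 and 7.61 CPM (-1.24 ± 0.36, edgeR adjusted p = 0.53). It has near-identical copies in the rat genome, so its count is uncertain. Hspa5, the chaperone of the endoplasmic reticulum, measured 88.1, 218 and 215 CPM against 107, 94.5 and 78.0 CPM (-0.90 ± 0.32), with control 3 among the restriction values. Without control 3 it was at -1.21. Hspa4l was higher but scarce, at 0 to 0.235 CPM against 0.488 to 1.19 CPM (2.70 ± 0.59, edgeR adjusted p = 0.29), and DESeq2 called it.

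Among satellite cell and myogenic genes, Pax7, the satellite cell factor, measured 6.42, 6.46 and 5.69 CPM in controls and 7.42, 9.79 and 6.88 CPM in restriction libraries (0.38 ± 0.29). Chodl, a marker of the same cells, measured 5.34, 6.02 and 8.10 CPM against 12.3, 12.1 and 10.2 CPM (0.83 ± 0.23, edgeR adjusted p = 0.52). Both had all restriction libraries higher, while Myf5 and Cdh15 overlapped. The list as a whole leaned the other way, with 12 of 18 values below 0, a median of -0.17, and 2 higher and 1 lower without overlap. The lower one was Des, the intermediate filament protein desmin, at 8673, 7596 and 7891 CPM against 7295, 6511 and 7075 CPM. Des made up most of the summed level, which was 10090, 9143 and 9741 CPM in controls and 8702, 8006 and 8437 CPM in restriction libraries, without overlap. At the neuromuscular junction, Rapsn, which clusters acetylcholine receptors, measured 22.3, 11.6 and 10.7 CPM against 20.1, 33.2 and 28.4 CPM (0.88 ± 0.29), with restriction 12 below control 3. Without control 3 it was at 1.30. The denervation list had a median of -0.07.

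Chromatin and DNA methylation genes had a median of -0.12 over 16 genes, with 4 lower and 1 higher without overlap. Mbd1, a methyl-CpG binding protein, measured 18.4, 16.7 and 19.5 CPM against 14.6, 14.9 and 11.8 CPM (-0.40 ± 0.16). Hdac2 and Hdac1, related histone deacetylases, went apart, at -0.33 ± 0.16 and 0.40 ± 0.19, each without overlap. Antioxidant genes had a median of -0.03 over 24 genes.

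Markers of cells other than muscle fibres were read as levels in whole muscle. The 15 adipocyte genes were all below 0, with a median of -0.45 (-0.71 without restriction 13) and 4 lower without overlap: Cidec, Cidea, Acaca and Lep. Cidec, a lipid droplet protein, measured 15.6, 16.1 and 12.2 CPM in controls and 7.46, 7.68 and 8.79 CPM in restriction libraries (-0.87 ± 0.30, edgeR adjusted p = 0.54). Cidea, a related protein, measured 26.4, 22.4 and 37.9 CPM against 16.9, 9.60 and 13.4 CPM (-1.12 ± 0.43). The defining markers Adipoq (17.0 to 64.5 CPM and 15.9 to 37.5 CPM) and Plin1 (6.75 to 27.0 CPM and 7.10 to 14.9 CPM) overlapped. The summed level of the list lay at 983 to 1646 CPM in controls and 681 to 1109 CPM in restriction libraries, most of it from Plin4.

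Schwann cell and myelin genes had 11 of 13 values above 0 and a median of 0.51. Pmp22, a protein of compact myelin, was the 1 member without overlap, at 40.2, 35.5 and 33.5 CPM against 50.4, 51.3 and 53.7 CPM (0.51 ± 0.19). Sox10, a transcription factor of these cells, was higher in control 3 than in the other controls, and the summed level lay at 182, 95.3 and 84.0 CPM against 166, 164 and 173 CPM. Macrophage genes had a median of 0.17 over 14 genes and no member without overlap. Lyz2, a lysozyme, measured 77.3, 98.0 and 65.3 CPM against 67.6, 196 and 185 CPM (0.90 ± 0.31), with restriction 12 among the controls. Without restriction 12 the median of that list was 0.58 and without restriction 15 it was -0.02. Fibroblast (0.03), endothelial (-0.01) and smooth muscle (0.03) lists had medians near that of all genes. The summed level of the smooth muscle list was lower in all restriction libraries, at 9019, 7985 and 8214 CPM against 7739, 6861 and 7411 CPM, most of it from Des, which muscle fibres also express.

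Of 6 red blood cell genes tested 5 were below 0, with a median of -0.81. Alas2, the heme enzyme of red cells, measured 2.82, 4.84 and 4.13 CPM against 2.58, 1.84 and 2.28 CPM (-0.81 ± 0.41), and Slc4a1, the anion exchanger of their membrane, 0.503 to 1.04 CPM against 0.0768 to 0.203 CPM. The globin Hba1, whose near-identical copies make it uncertain, overlapped (398 to 535 CPM and 301 to 547 CPM). Without control 3 the median was -0.25. Of 11 lymphocyte genes 2 passed the count filter, Cd4 and Nkg7, and the T cell receptor subunits Cd3d, Cd3e and Cd3g did not. The part of any of these cell types in the differences of other genes was not tested. Over all lists, the medians of 16 of 36 changed sign when 1 library of set 1 was left out. The medians of those 16 lay between -0.09 and 0.17 with all libraries.

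**Figure D4:**
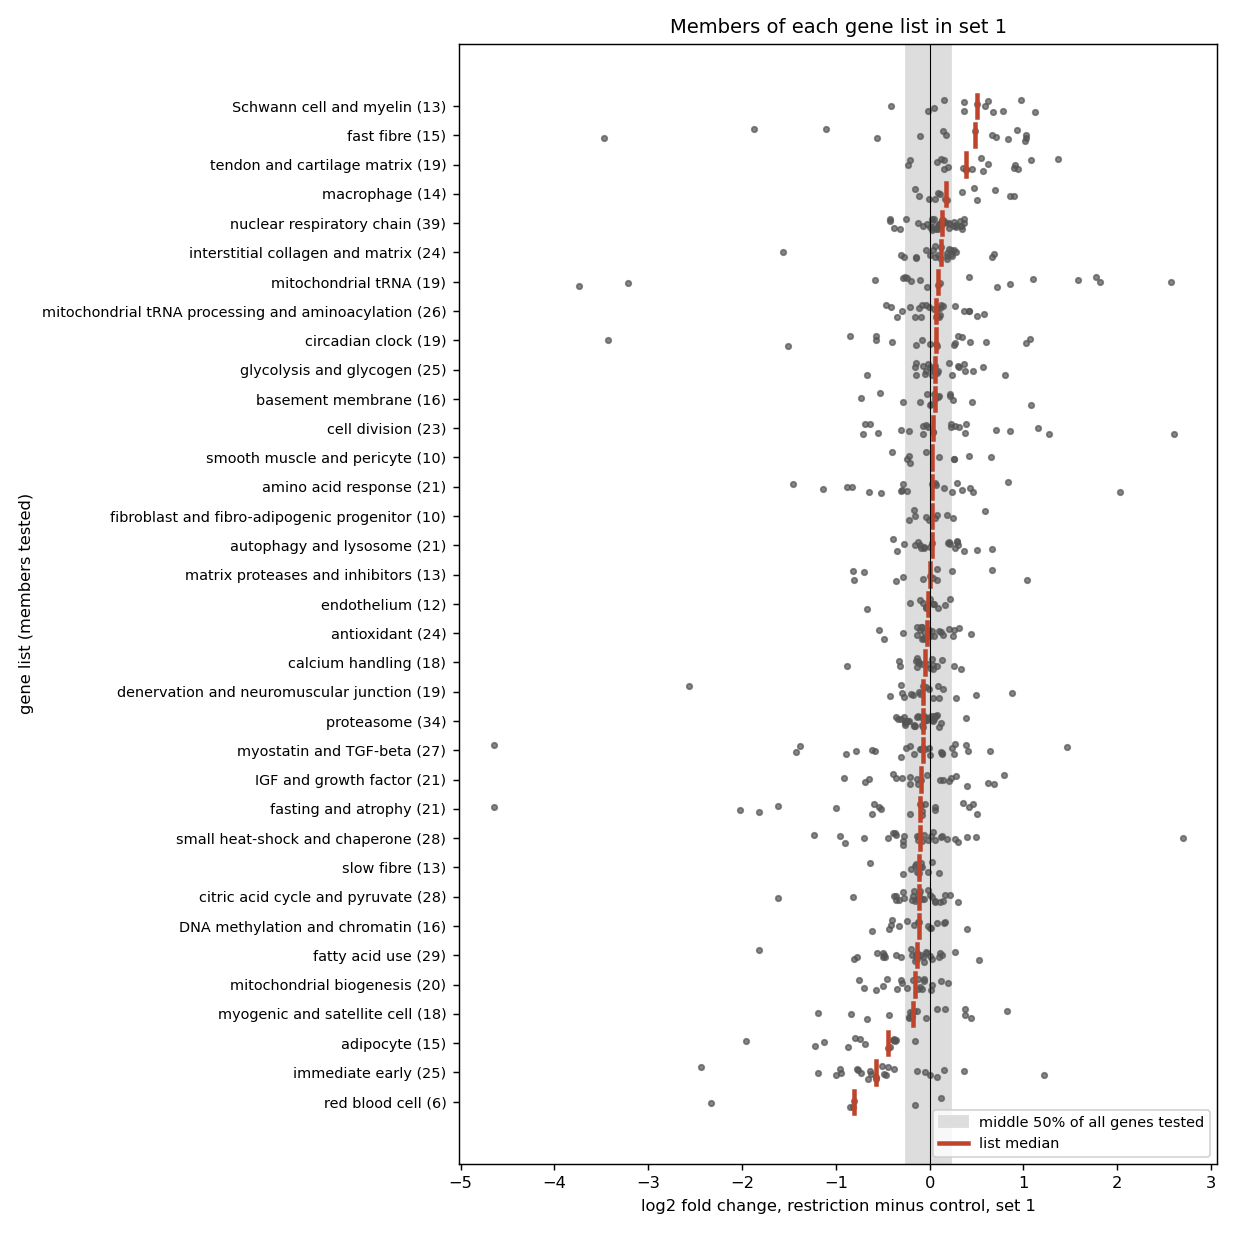
Log2 fold change in set 1 of every tested member (grey points) of the gene lists with at least 5 tested members, with the list median as a red bar and the range of the middle 50% of all genes as a grey band. The medians run from -0.81 for red blood cell genes to 0.51 for Schwann cell genes, and most lie inside the band.

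Whether the diet difference in slow muscle departed from that in set 2 was tested directly, as the set 2 difference minus the set 1 difference. EdgeR called 0 of 14225 genes (0%), with 1351 at an unadjusted p under 0.05 (9.5%), where DESeq2 called 30 (0.211%) and limma-voom 0 (0%). Without a filter on low counts edgeR called 1 (0.00539%) and without control 23 it called 0. Within set 2 edgeR called 0 genes (0%), with 1222 at an unadjusted p under 0.05 (8.59%). Trnn had the set 2 value -0.35 ± 0.34, and its difference between sets was 3.39 ± 0.49 (edgeR adjusted p = 0.098). Acadsb was at 0.26 ± 0.36 in set 2 with a difference of 2.37 ± 0.54 (edgeR adjusted p = 0.42), and Tcap at -0.52 ± 0.31 with a difference of 1.66 ± 0.44 (edgeR adjusted p = 0.42).

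For Lrrfip1 and Fam168a the set 2 values were 0.14 ± 0.15 and 0.33 ± 0.20, above 0 where set 1 was below, with differences of 1.08 ± 0.21 and 1.32 ± 0.28 (edgeR adjusted p = 0.42 for both). Nr4a2 and Arntl had lower values after restriction in set 2 as well, at -1.38 ± 0.41 and -0.62 ± 0.25. Arntl measured 28.6, 45.1 and 52.0 CPM in controls 23, 28 and 29 and 32.9, 23.7 and 25.1 CPM in restriction libraries 32, 33 and 35, so its groups overlapped there. The groups of Nr4a2 overlapped in set 2 too, with control 23 at 2.25 CPM and restriction 33 at 2.54 CPM. Among the higher genes, Espl1 (0.69 ± 0.27) and Tmem159 (0.50 ± 0.19) were above 0 in set 2 too, while Sh3rf2 was at -0.24 ± 0.20, Tmlhe at 0.01 ± 0.20 and Nprl3 at 0.00 ± 0.15. The lists with a negative set 2 median and a positive one in set 1 included fast-fibre genes (-0.30) and the nuclear respiratory chain (-0.32), and the adipocyte list had a positive one (0.28). Tendon and cartilage matrix genes (1.08) and immediate early genes (-1.06) had set 2 medians of the same sign as in set 1 and larger in size. Of the series description's genes, Fmod (1.02 ± 0.28), Chad (1.38 ± 0.40), Hspb7 (-1.25 ± 0.32) and Myog (-0.76 ± 0.22) kept their direction in set 2, none called. Cs, Sdha, Ldha and Igf1 had the opposite sign there. Libraries of the sets whose numbers lie 20 apart may come from the same animals, which the labels do not say.

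**Figure D5:**
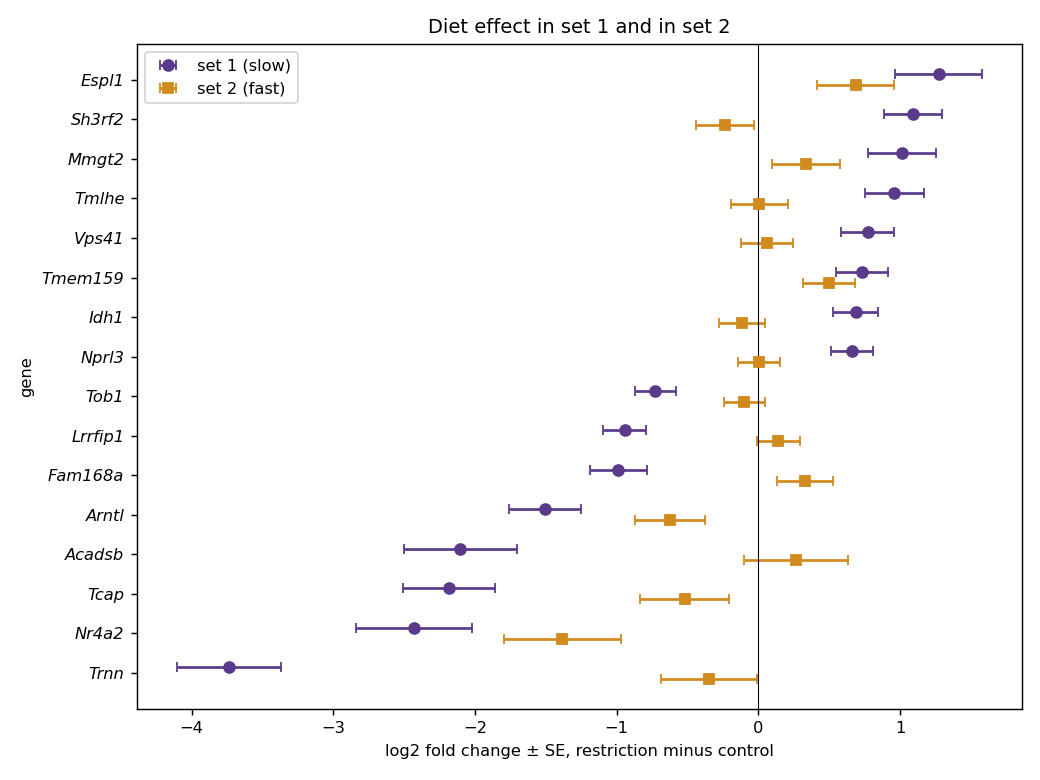
Log2 fold change (restriction minus control) from edgeR, with the SE derived from its test, in set 1 (circles) and set 2 (squares) for the 16 genes with the smallest p in set 1, which were chosen on the set 1 values. Trnn, Acadsb and Tcap lie far below 0 in set 1 and between -0.52 and 0.26 in set 2, and Nr4a2 and Arntl lie below 0 in both.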

How the data were processed

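RNA-seq counts of 12 libraries were used, 6 of them in set 1. RNA was extracted with Trizol and made into libraries with a TruSeq RNA kit, per the labels, and the kit does not mark strand. As tools, featureCounts, HISAT2, Trimmomatic and DESeq2 are named in the submitters' processing notes, which give Rnor_6.0 as the genome. Tool versions and annotation were not given in the sources used here. Whole-number counts per gene were deposited by the authors, in 24648 rows, of which 144 names stood on more than 1 row. A second deposited table, the same counts divided by 1 constant per library, was not used.

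Genes were kept with filterByExpr over 4 groups of 3 (14225 genes) and scaled by TMM. A model with a mean for each group was fitted to all 12 libraries in edgeR 4.0.16 (R 4.3.3), with quasi-likelihood tests and Benjamini-Hochberg adjustment at 0.05. Sharing the spread over both sets was preferred because 3 libraries a group say little about it. Values are log2 fold change ± SE. EdgeR's test reports no SE, so it was derived as the absolute log2 fold change divided by the square root of the test's F statistic. The members, the 36 gene lists and the tests were chosen with earlier results of these data known. Named were the called genes, 8 per direction with the smallest p (with a symbol, without overlap and with a mean CPM no lower than 1), up to 4 members per list with unadjusted p under 0.05 and no overlap, the 8 genes of the series description and 4 myosins. Other list members were named after their values were seen.

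DESeq2 1.42.0, limma-voom (limma 3.58.1), other scalings and filters, thinning to the smallest library, removal of mitochondrial tRNA and rRNA rows and leaving out libraries served as alternatives. Leaving out control 3 and restriction 15 together was chosen after seeing the data. On simulated counts for the set 1 comparison (13920 genes) the fit recovered 47% of 100 genes changed 2-fold and 85% of 100 changed 4-fold. These counts were drawn independently from the fitted spread, and every changed gene had a mean CPM of at least 1. An adjusted p depends on how many genes change, and the real fit called 1. The 2 shares therefore do not give the power of the real comparison. Libraries of a group in set 1 differed by more than sampling noise (chi-square divided by its degrees of freedom 24.5 to 88.2). RefSeq names and promoters are of GRCr8, and 18182 rows matched a current symbol and 2146 a synonym. Values of some list members are not reported here, though they count in the list totals.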

Additional observations from a re-analysis of the deposited data

How the results depend on the processing

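The count of genes called in set 1 was 1 in edgeR and moved to 38 with DESeq2, 3 with limma-voom, 6 without a filter on low counts, 5 with only the 6 libraries of set 1 and 0 without the mitochondrial tRNA and rRNA rows, which removes Trnn itself. Leaving out 1 library at a time gave 1 to 22, with 22 without control 23 and 2 without control 28 or restriction 33, and Trnn was called each time. The difference between the sets had 0 calls, 30 with DESeq2, 1 without the filter and 0 to 1 leaving out 1 library. With a replicate block that pairs numbers 20 apart it had 0 calls, with 1586 genes at an unadjusted p under 0.05. Deviations of such pairs correlated at 0.0791 to 0.175, and every library correlated best with its partner, which is a hint from the data and not the design. No paired analysis was possible because within set 1 the control and restriction libraries share no number. Of 1642 values of named genes under alternatives, 1603 kept direction and side of the threshold, 36 became called, 0 were lost and 3 changed sign: Igf1 at -0.10 without restriction 13 (up to 0.57 without control 3), Myh1 at -0.33 without restriction 15 (up to 2.41 without control 3) and Myh4 at 0.059 without control 3 (down to -4.03 without control 9). Only Trnn was called in the main fit, so a lost call could concern Trnn alone. Leaving out a library of set 2 hardly moves a difference in set 1 (Trnn stayed between -3.739 and -3.735). Much of this agreement was therefore fixed in advance and is weak evidence of stability. Leaving out 1 library of set 1, the difference in mean total counts lay between -8407000 and -2504000 and that in the mitochondrial tRNA share between 1.59 and 1.92 percentage points. Depth limits the rows under about 1 CPM, such as Trnc and Cenpm.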
